A study of Mus musculus with 6 samples.

Results

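The miR-29 family was followed in mouse pancreatic islets, small groups of endocrine cells that include the insulin-producing beta cells. Its members were taken by name: the rows for both arms of mir-29a and mir-29c, for the miR-29b-3p arm that a pair of genes share, and for the 5p arm of each of those genes. All 7 names were found among the 1011 rows of the table. Small RNA had been sequenced from primary islets of mice that were either HFD-fed or NCD-fed, with 3 libraries per diet. The diets are named only by these abbreviations. The labels used here name no strain, age, length of feeding or pooling of animals, so p-values measure the spread between these libraries, which may be technical.

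MicroRNAs are short RNAs cut from a hairpin precursor. 1 arm, the guide, is kept in Argonaute and pairs through its seed (bases 2 to 8) with messenger RNAs, which it represses, while the other arm, the passenger, is mostly degraded. miR-29 guides are the 3p arms. In beta cells miR-29 is known to repress Slc16a1, which encodes the monocarboxylate transporter Mct1, a gene kept silent there so that circulating pyruvate and lactate do not trigger insulin release. It is also known to repress Onecut2, a transcription factor that holds down the exocytosis inhibitor granuphilin, and in fibroblasts it restrains collagen genes.

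The sequences of the members show why the 3p arms count as 1 family and the 5p arms do not. Capitals mark the seed, and each deposited sequence equalled the RefSeq entry (GRCm38.p6).
miR-29a-3p: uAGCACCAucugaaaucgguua
miR-29b-3p: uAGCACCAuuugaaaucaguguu
miR-29c-3p: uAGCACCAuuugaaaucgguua
miR-29a-5p: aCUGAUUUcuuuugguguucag
miR-29b-1-5p: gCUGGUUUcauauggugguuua
miR-29b-2-5p: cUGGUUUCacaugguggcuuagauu
miR-29c-5p: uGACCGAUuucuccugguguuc
The 3p arms share the seed AGCACCA, and no other row of the table held it at bases 2 to 8. Each 5p arm had a seed of its own. Counted from the 5′ end, miR-29a-3p and miR-29c-3p differ by C10U alone. miR-29c-3p and miR-29b-3p are identical over their first 17 bases and part at G18A. miR-29b-3p ends in AGUGUU, the hexamer known to direct it to the nucleus in cultured cells, and 2 of the 1011 rows end in it. No row was antisense to a member over 18 bases. The sources at hand do not say how a read that fits more than 1 of these sequences was assigned.

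The family lies in 2 clusters, each with 1 miR-29b gene. On the minus strand of chromosome 6 (GRCm38), Mir29a spans chr6:31062660-31062747 and Mir29b-1 spans chr6:31063023-31063093, 275 bases away. Mir29a overlaps no other annotated gene, and Mir29b-1 overlaps an exon of the noncoding Gm27019 on the same strand. On the plus strand of chromosome 1, Mir29b-2 spans chr1:195037040-195037120 and Mir29c spans chr1:195037547-195037634, 426 bases away. Both overlap annotated exons of the noncoding A330023F24Rik on the same strand and of Cd46 on the opposite strand. The mature miR-29b-3p of Mir29b-1 and Mir29b-2 is the same, so its reads cannot be divided between the clusters.

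Library totals ran from 7166712 to 11172255 counts. Levels are given as CPM, read counts divided by the library total after scaling by the TMM factor, a correction for library composition, and brought to a common total. That factor was 1.73 in NCD 3 and 0.84 to 0.995 in the other libraries, so levels in NCD 3 rest more on it. The islet endocrine markers were present in every library, with a summed level of 487384 to 574264 CPM in HFD and 276705 to 628583 CPM in NCD islets, lowest in NCD 3. With TMM scaling, the fold change of HFD against NCD was negative for 3 of 3 tested acinar markers, 2 of 2 endothelial, 4 of 5 fibroblast and smooth muscle, 2 of 2 leukocyte, 1 of 1 erythroid, 3 of 3 liver and muscle, and 1 of 6 islet endocrine markers. Over all tested miRNAs the fold change was positive for 51.5%. In each of these lists 0 markers had an adjusted p under 0.05 with edgeR, against 0.246% of all tested miRNAs. The sum of the 4 acinar markers was 20.2 to 205 CPM in HFD and 111 to 418 CPM in NCD islets, highest in NCD 3. miR-216a-5p and miR-216a-3p were at 0 in HFD 1. The fibroblast and smooth muscle markers, whose sum was mostly miR-143-3p, reached 1329 to 4975 and 1514 to 2978 CPM. The endothelial markers summed to 299.8 to 434 and 346 to 748 CPM. The leukocyte markers stayed at 3.73 to 9.13 and 8.20 to 28.5 CPM and the erythroid markers at 41.3 to 134 and 33.4 to 127 CPM. The liver and muscle markers reached 48.3 to 130.4 and 127 to 885 CPM, highest in NCD 1. Fewer cells of a type and less RNA per cell cannot be told apart in such samples.

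mmu-miR-29a-3p was the most abundant member in each of the 6 libraries. It had 347, 265 and 561 CPM in HFD 1, 2 and 3, and 230.4, 329.7 and 418 CPM in NCD 1, 2 and 3. The highest value of each diet came from its library 3, and the diets overlapped. mmu-miR-29b-3p had 42.8, 28.8 and 60.1 CPM in the HFD libraries and 29.7, 36.2 and 37.6 CPM in the NCD libraries. HFD 3 was again the highest, while the NCD libraries lay close together. mmu-miR-29c-3p was at 5.01, 3.53 and 8.27 CPM in the HFD libraries, against 4.15, 4.61 and 9.52 CPM in the NCD libraries. Here NCD 3 was the highest library and HFD 3 the next. Library 3 of each diet was thus the highest of its diet for all of the 3p arms. The acinar sum was highest in library 3 of each diet too, at 205 and 418 CPM. With TMM scaling the islet endocrine, the endothelial and the fibroblast and smooth muscle sums were lowest there. The TMM factor was itself the largest of each diet in library 3 (0.995 in HFD 3, 1.73 in NCD 3), which lowers CPM there. HFD 1 had the lowest acinar sum, 20.2 CPM, and its 3p arms all stood above those of HFD 2. The part of these markers in the 3p levels was not tested.

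The 5p arms differed in level by more than an order of magnitude. mmu-miR-29c-5p reached 12.5, 13.5 and 20.4 CPM with HFD, against 9.05, 7.28 and 24.3 CPM with NCD, again highest in library 3 of each diet. mmu-miR-29b-2-5p reached 3.12, 1.77 and 3.36 CPM with HFD, against 1.63, 0.41 and 2.06 CPM with NCD. NCD 2 held 4 reads of it and was the lowest library. mmu-miR-29a-5p was counted at 14, 0 and 4 reads in the HFD and 3, 4 and 16 reads in the NCD libraries. mmu-miR-29b-1-5p had 0, 5 and 11 reads in HFD and 3, 2 and 8 reads in NCD libraries. A count of 0 allowed up to 0.379 CPM in HFD 2 and 0.334 CPM in HFD 1, taken as 3 counts, a limit that covers counting error only. These last 2 rows did not pass the filter on low counts, which 5 of the 7 members passed.

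**Figure D1:**
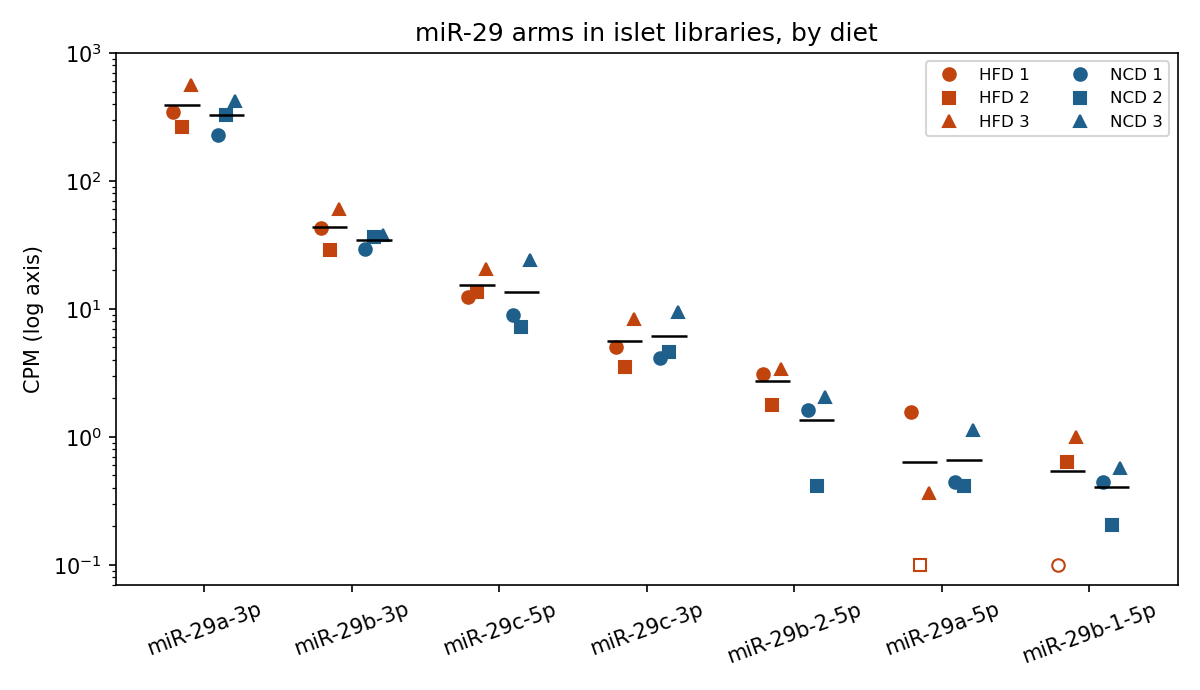
CPM (log axis) of the 7 miR-29 rows in each HFD (orange) and NCD (blue) library, with black bars for the mean of 3 libraries and open symbols at the bottom for a count of 0. miR-29a-3p stands above the rest in every library, and miR-29c-5p stands above miR-29c-3p.

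The order of the members by mean level held in all 6 libraries down to miR-29b-2-5p. All members are 22 to 25 bases long, so CPM needs no length term, although ligation favours some ends over others and levels of different miRNAs carry that bias. By mean level the order was miR-29a-3p, miR-29b-3p, miR-29c-5p, miR-29c-3p, miR-29b-2-5p, miR-29a-5p and miR-29b-1-5p. The tests of neighbours below use the same libraries that set this order, so they describe it and are not separate support. miR-29a-3p was 9.04-fold above miR-29b-3p (geometric mean over 6 libraries), which was 2.85-fold above miR-29c-5p. miR-29c-5p was 2.41-fold above miR-29c-3p, which was 3.09-fold above miR-29b-2-5p. Each of these 4 steps held in 6 of 6 libraries, with p = 0.0312 in a two-sided exact sign-flip permutation test, the smallest that 6 libraries can give (0.0469 adjusted over the 6 neighbouring pairs). miR-29b-2-5p was above miR-29a-5p in 5 of 6 libraries and equal in the other (exact p = 0.0625, adjusted 0.075). miR-29a-5p and miR-29b-1-5p could not be ordered, with 3 libraries favouring the first and 1 tied (exact p = 0.75).

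The arms of mir-29c were counted in the opposite order to those of mir-29a. Both hairpins are given because their arms are so alike in sequence and so unlike in balance, with the mature 5p and then the 3p arm in capitals.
mir-29a: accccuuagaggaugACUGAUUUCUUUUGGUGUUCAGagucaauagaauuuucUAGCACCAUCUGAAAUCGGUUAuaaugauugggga
mir-29c: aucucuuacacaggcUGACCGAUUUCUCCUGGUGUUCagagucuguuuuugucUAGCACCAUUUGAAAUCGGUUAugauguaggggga
Of the reads from both mir-29c arms, the share of miR-29c-5p was 71.3%, 79.3% and 71.1% in HFD 1, 2 and 3, and 68.5%, 61.2% and 71.8% in NCD 1, 2 and 3. The lower ends of the exact (Clopper-Pearson) 95% intervals lay between 51.7% and 71.4%, so the 5p arm was the larger in every library beyond counting error. That order depends on how reads were assigned between miR-29c-3p and miR-29a-3p. The gap between the mir-29c arms equalled 0.808% (NCD 2) to 3.76% (HFD 2) of the miR-29a-3p reads, and the assignment was not tested. For mir-29a the 5p arm took 0% to 0.447% of the arm reads. In HFD 2 it was at 0 of 2101 reads, which allows a share of up to 0.143% taken as 3 counts, while the exact interval ends at 0.175%. Among all listed miRNAs, 186 hairpin names had both arms present and at least 100 reads. These names are not all separate. For example, miR-122-5p and miR-122b-3p had equal levels in every library, as had miR-126a-5p and miR-126b-3p, and miR-338-3p and miR-3065-5p. Such names were not merged or counted, so the 186 are not independent. The larger arm of the 186 names held a median of 97.1% of the reads, against 71.2% for mir-29c and 99.8% for mir-29a. A larger-arm share below that of mir-29c was found for 29 of the 186, and one above that of mir-29a for 32.

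**Figure D2:**
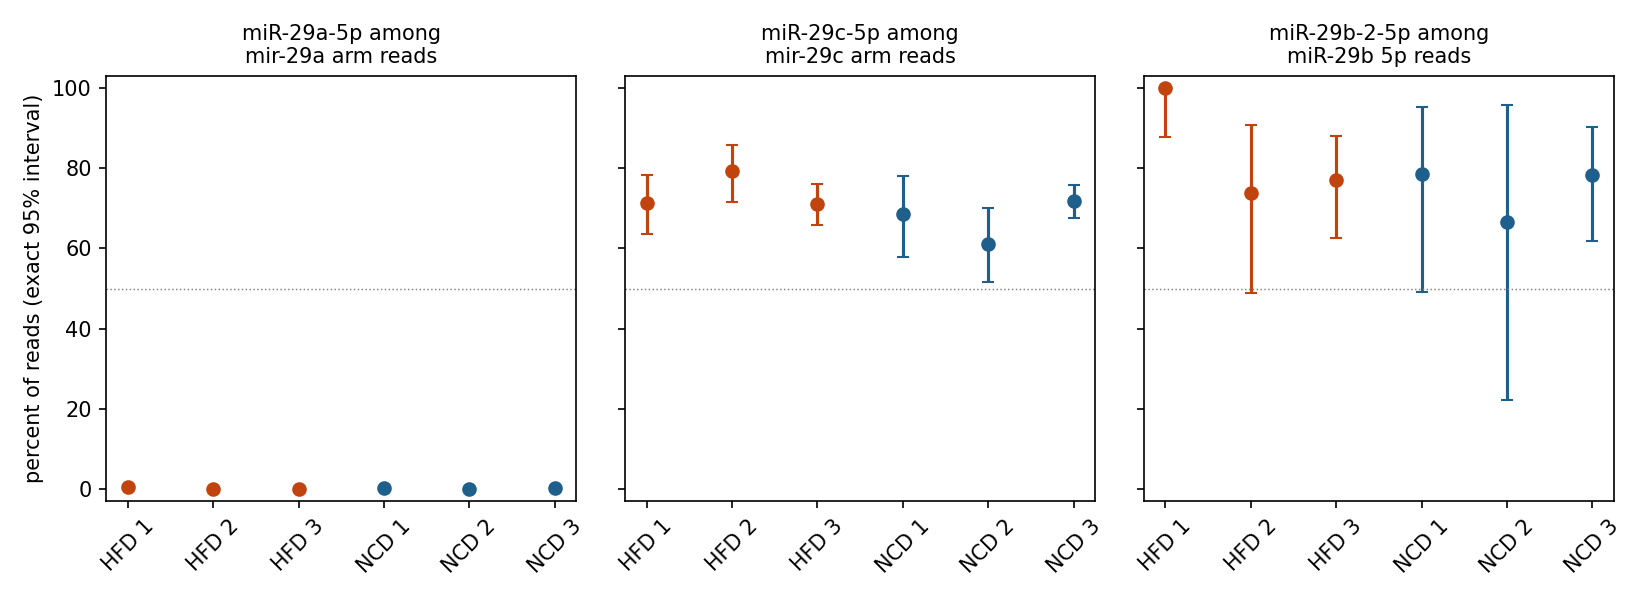
Percent of arm reads that were 5p for mir-29a and mir-29c, and percent of miR-29b 5p reads that came from Mir29b-2, in each HFD (orange) and NCD (blue) library, with exact 95% intervals. The mir-29a points lie at 0% to 0.447%, and the mir-29c points at 61.2% to 79.3%.

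The 5p arms and the 3p arms were counted mostly from different clusters, leaving out miR-29b-3p, which both share. miR-29c-5p, from chromosome 1, made up 88.9% to 100% of the summed miR-29a-5p and miR-29c-5p reads. miR-29b-2-5p, from the same cluster, took 66.7% to 100% of the miR-29b 5p reads and exceeded miR-29b-1-5p in 6 of 6 libraries, on 6 to 48 reads per library. Among the 3p arms, miR-29a-3p from chromosome 6 had 43.9 to 75.04 times the reads of miR-29c-3p. The miR-29c-3p count was therefore 1.33% to 2.28% of that of miR-29a-3p, from which it differs by 1 base. Whether reads with 1 error passed between these rows was not tested.

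miR-29a-3p took 87.2% to 89.9% of the summed 3p reads, miR-29b-3p 8.08% to 11.2% and miR-29c-3p 1.19% to 2.05%. NCD 3 had the lowest share of miR-29b-3p and the highest share of miR-29c-3p (2.05%, exact 95% interval 1.72% to 2.42%). That interval lay just above the one of HFD 2 (0.791% to 1.71%), the library with the lowest share of miR-29c-3p. These are the extremes of the 6 libraries, compared after seeing the values, and the intervals cover counting error only. The ratio of miR-29a-3p to miR-29b-3p was 8.11, 9.21 and 9.33 in the HFD and 7.76, 9.11 and 11.1 in the NCD libraries. On the log2 scale its mean was 3.15 ± 0.11 with HFD against 3.20 ± 0.26 with NCD (SD of 3 libraries), and the diets overlapped. The ratio of miR-29b-3p to miR-29c-3p was 8.53, 8.14 and 7.26 in the HFD and 7.14, 7.84 and 3.95 in the NCD libraries, with NCD 3 apart from the others. These ratios are taken within a library and do not depend on the scaling.

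**Figure D3:**
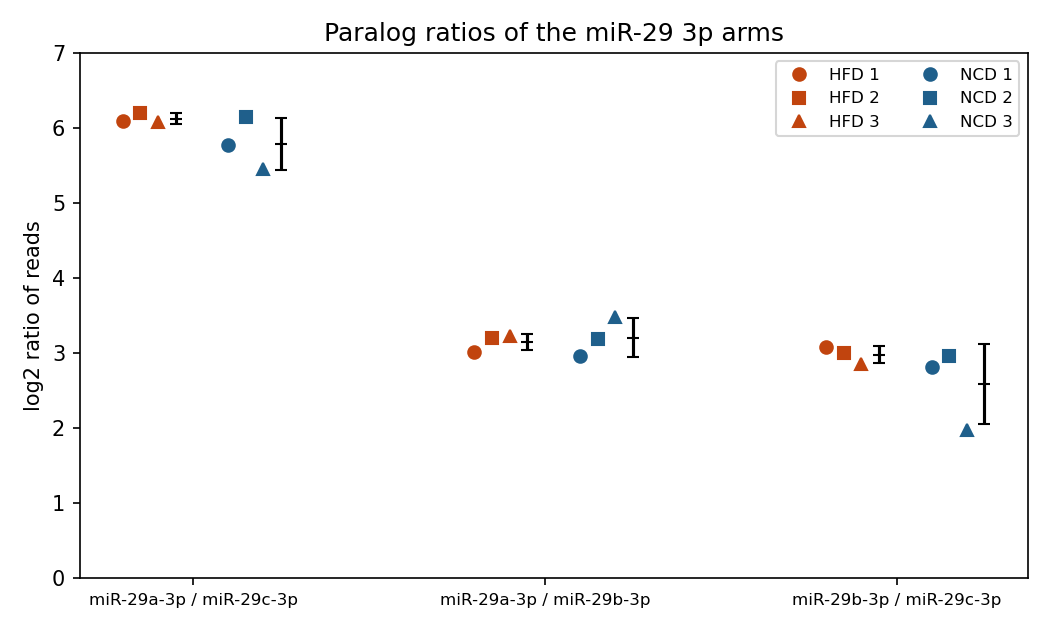
Log2 ratio of reads between the miR-29 3p arms in each HFD (orange) and NCD (blue) library, with the mean and SD of 3 libraries in black. The 3 HFD points lie close together in each ratio, and NCD 3 lies apart from NCD 1 and NCD 2 in the ratio of miR-29b-3p to miR-29c-3p.

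None of the ratios separated the diets. The log2 ratio of miR-29a-3p to miR-29c-3p was 6.13 ± 0.07 with HFD against 5.79 ± 0.35 with NCD (SD of 3 libraries), a difference of 0.34 (two-sided exact permutation p = 0.3). For miR-29b-3p to miR-29c-3p the difference was 0.40 (exact p = 0.2), and for miR-29a-3p to miR-29b-3p it was -0.06 (exact p = 0.9). The 3p to 5p ratio of mir-29c was -1.51 ± 0.36 with HFD against -1.04 ± 0.35 with NCD, a difference of -0.47 (SD of 3 libraries, exact p = 0.3). The 3p to 5p ratio of mir-29a differed by 1.15 (exact p = 0.5) and rested on 0 to 16 miR-29a-5p reads per library. Those of miR-29b-3p to miR-29b-1-5p and to miR-29b-2-5p differed by 0.62 and -0.90 (exact p = 0.9 and 0.2), and that of miR-29b-1-5p to miR-29b-2-5p by -1.53 (exact p = 0.6). Adjusted over these 8 ratios, the exact permutation p was 0.6 or more, and such a test of 3 libraries against 3 cannot give less than 0.1.

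The diet contrast is the comparison that the groups of the study imply. No member of the miR-29 family passed. Of the 5 tested members 0 had an adjusted p under 0.05 with edgeR, against 1 of 406 tested miRNAs (0.246%). At an unadjusted p under 0.05 the counts were 0 of 5 and 41 of 406 (10.1%), and with DESeq2 or limma-voom 0 of the 5 passed. The diets did not overlap for 0 of 5 members and for 15.3% of all tested miRNAs. A positive log2 fold change was fitted for 4 of 5 members and for 51.5% of all, with a median of 0.26 and 0.02.

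The 3p arms had small fold changes with wide intervals. miR-29a-3p averaged 391 ± 153 CPM with HFD against 326 ± 94.1 CPM with NCD (SD of 3 libraries). This gave a log2 fold change of 0.26 ± 0.35 (SE), for which the 95% interval ran from -0.50 to 1.03 and the adjusted p in edgeR was 0.811. miR-29b-3p averaged 43.9 ± 15.7 against 34.5 ± 4.23 CPM, or 0.35 on the log2 scale (interval -0.43 to 1.13, adjusted p = 0.693 in edgeR). miR-29c-3p averaged 5.61 ± 2.43 against 6.10 ± 2.98 CPM, or -0.15 on the log2 scale (interval -1.23 to 0.92, adjusted p = 0.918 in edgeR). The intervals leave room for a doubling of miR-29a-3p and miR-29b-3p in HFD islets. They equally leave room for a fall, to -0.50 and -0.43 on the log2 scale, and to -1.23 for miR-29c-3p.

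Of the 5 tested members, miR-29b-2-5p had the largest fold change and the largest SE, averaging 2.75 ± 0.86 CPM with HFD against 1.37 ± 0.857 CPM with NCD. On the log2 scale this was 0.98 ± 0.61 (SE), with an interval from -0.33 to 2.29 (adjusted p = 0.573 in edgeR). It rested on 4 to 37 reads per library, and was 0.54 without NCD 2 and 1.59 without NCD 3. miR-29c-5p averaged 15.4 ± 4.29 against 13.5 ± 9.36 CPM, or 0.15 on the log2 scale (interval -0.88 to 1.18, adjusted p = 0.918 in edgeR), which was 0.93 without NCD 3. miR-29a-5p and miR-29b-1-5p were fitted only without the filter on low counts, with log2 fold changes of -0.24 ± 0.87 and 0.36 ± 1.01 (SE).

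The direction depended on the scaling. With library totals as the only scaling the log2 fold change was -0.20 for miR-29a-3p, -0.05 for miR-29b-3p and -0.40 for miR-29c-5p, each of which turned from positive, and -0.61 for miR-29c-3p. The median of all tested miRNAs moved to -0.37 under that scaling. Relative to the median of all miRNAs, miR-29a-3p stood at 0.25 with TMM and 0.17 with library totals, miR-29b-3p at 0.33 and 0.32, and miR-29c-5p at 0.13 and -0.04. Single libraries also decided the sign: miR-29a-3p was at -0.12 without HFD 3 and -0.01 without NCD 1, and miR-29c-3p at 0.38 without NCD 3 and 0.01 without HFD 2.

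**Figure D4:**
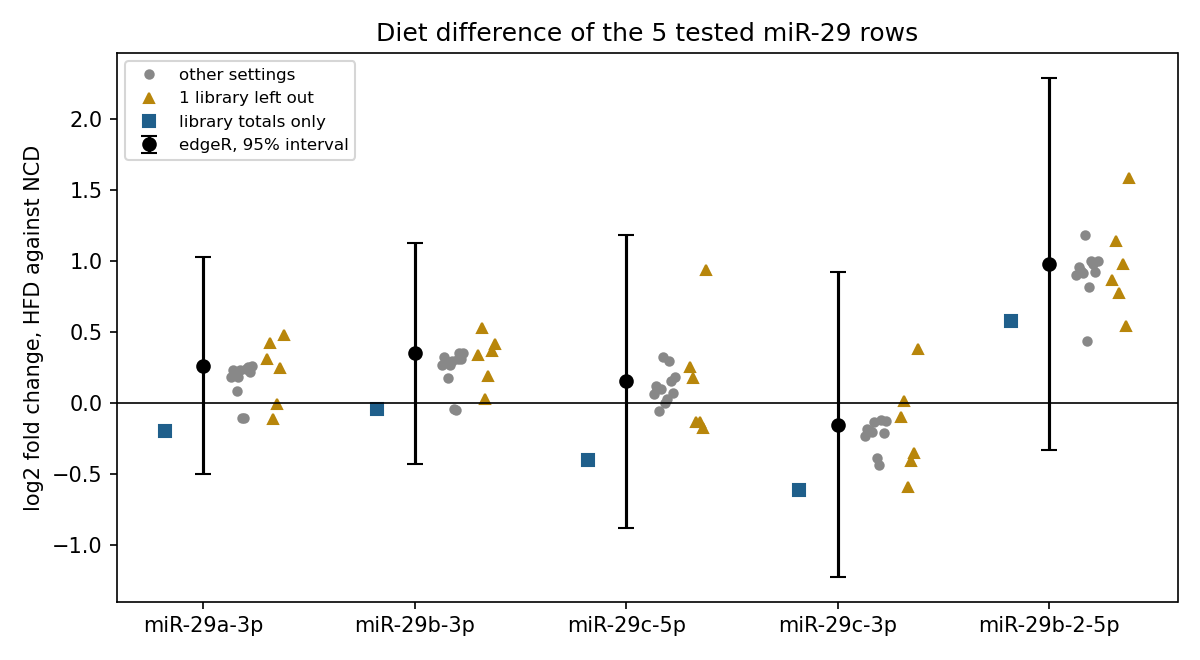
Log2 fold change (HFD against NCD) of the 5 tested miR-29 rows with the edgeR 95% interval (black), with library totals only (blue), with other settings (grey) and with 1 library left out (gold). All 5 black intervals include 0, and only miR-29b-2-5p stays above 0 in every setting shown.

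The miRNAs most like miR-29a-3p across the libraries were miR-186-5p, miR-410-3p, miR-16-5p, miR-96-5p and miR-384-5p. Likeness was taken as the Pearson r of log2 CPM over the 6 libraries, among 236 other miRNAs with a mean of at least 10 CPM, and serves as a description of these libraries, which share their totals and scaling factors. It was 0.98 for miR-186-5p, which followed the same order of libraries as miR-29a-3p, 0.95 for miR-410-3p and miR-16-5p, 0.94 for miR-96-5p and 0.92 for miR-384-5p. miR-96-5p, from a cluster strongly expressed in sensory and endocrine cells, spanned 10.9 to 20.6 CPM with HFD and 9.05 to 15.4 CPM with NCD. miR-186-5p had 44.9 to 115 and 42.7 to 67.7 CPM. Both were highest in library 3 of each diet, like the 3p arms, which their choice by r with miR-29a-3p favours. The more abundant cluster mates of miR-96-5p did not share this pattern. With TMM scaling miR-183-5p was lowest in library 3 of each diet (1989 CPM in HFD 3, 1069 CPM in NCD 3). miR-182-5p was lowest in NCD 3 among the NCD libraries, at 1096 CPM. Within the family the r with miR-29a-3p was 0.92 for miR-29b-3p, 0.86 for miR-29c-3p, 0.68 for miR-29c-5p and 0.37 for miR-29b-2-5p.

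**Figure D5:**
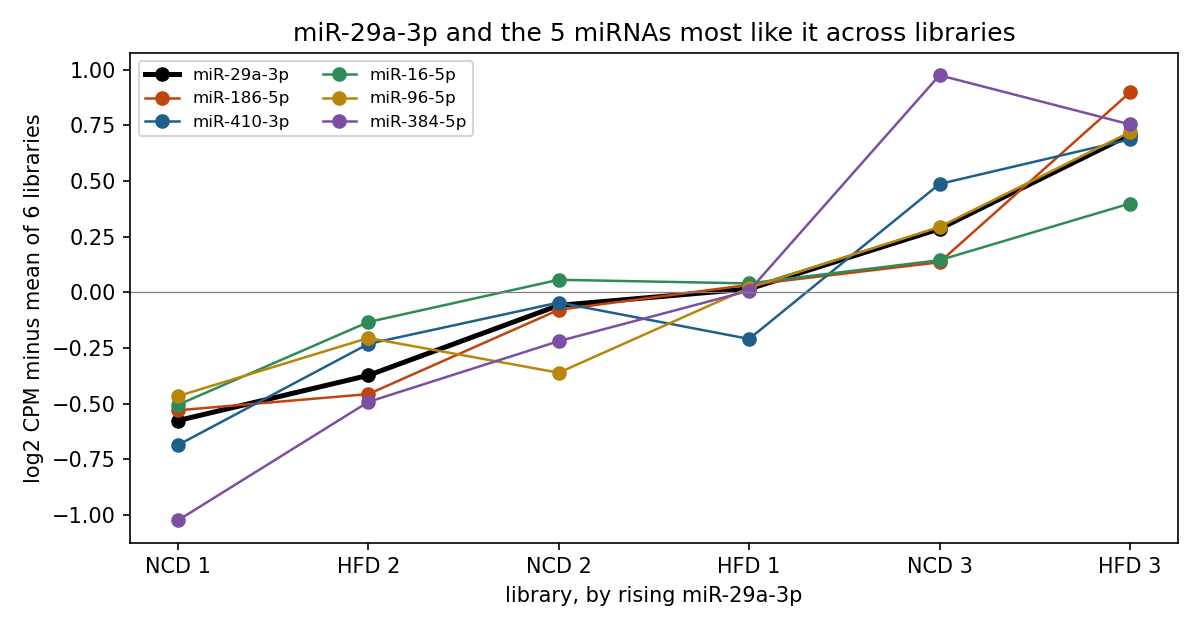
Log2 CPM of miR-29a-3p (black) and the 5 miRNAs most like it, each minus its mean over the 6 libraries, with libraries ordered by rising miR-29a-3p. All 6 lines are lowest in NCD 1 and highest in HFD 3 or NCD 3.

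Other miRNAs known to restrain insulin secretion or granule exocytosis, or to repress Mct1 as miR-124-3p does, were read beside the family. Of 13 listed, 12 were tested and 0 passed, against 0.246% of all tested miRNAs. With TMM scaling, 9 of the 12 had a positive and 3 a negative log2 fold change, against 51.5% positive over all. The median of the 12 was 0.32, against 0.02 over all. miR-375-3p, miR-7a-5p, miR-7b-5p and miR-96-5p are also islet endocrine markers, so these lists are not separate. The 4 most abundant of the 12 were miR-375-3p, miR-7a-5p, miR-7b-5p and miR-184-3p. Their log2 fold changes were -0.02 ± 0.41, 0.37 ± 0.36, 0.36 ± 0.36 and 0.05 ± 0.36 (SE). miR-124-3p averaged 5.26 ± 3.91 CPM with HFD against 3.97 ± 1.52 CPM with NCD (SD of 3 libraries), below miR-29a-3p and miR-29b-3p in its mean level in both diets.

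Matches to the shared seed were counted in the 3′ UTRs of known miR-29 targets, since no messenger RNA was measured. The motifs were TGGTGCT, which pairs with bases 2 to 8, and GGTGCTA, which pairs with bases 2 to 7 and has an A after them, on the transcript strand only and with overlapping matches counted once. The longest 3′ UTR of each gene was taken from GENCODE M21. Slc16a1 held 1 match in 2740 bases, in its last exon, shown here as the link between the family and Mct1, with the pairing bases in capitals.
Slc16a1, chr3:104655782-104655811 (GRCm38, plus strand): ctctagtctaccagTGGTGCTcagtgcaga
It lies 74 bases into the 3′ UTR. Of 3069 genes with a 3′ UTR of similar length (within 25% in either direction), 29.3% held at least 1 match. Stx1a, a syntaxin of the exocytosis machinery, held 1 match, as did Onecut2 and the survival gene Mcl1. At least 1 match was held by 14.6%, 74.4% and 26.5% of the 3′ UTRs of a length similar to theirs. The collagen genes Col1a1 and Col3a1 held 3 and 2, and the DNA methyltransferase genes Dnmt3a and Dnmt3b held 6 and 2. For these 4 the share of similar 3′ UTRs with at least 1 match was 16.01%, 11.8%, 51.99% and 15.6%. The share with several matches was not counted for any gene. Tet1, whose product oxidises methylated cytosine, held the most with 8 in 7962 bases, a length at which 57.8% of 3′ UTRs held at least 1. Of 21020 genes with a 3′ UTR, 16.03% held a match. A match is a description of the sequence and not evidence of repression in these islets.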

How the data were processed

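Islets of HFD and NCD mice gave total RNA by column extraction, from which NEBNext small RNA libraries were prepared, per the labels' protocols. The labels and the file header name no aligner, counting tool, genome build or miRNA release. The authors deposited raw read counts for each mature miRNA, per the file headers, beside TPM values, which were found to be those counts divided by the library total with no length term (relative difference up to 4.61e-09).

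Counts were tested with edgeR 4.0.16 (R 4.3.3): rows were kept by filterByExpr (minimum count 10), scaled by TMM and fitted by quasi-likelihood (legacy = FALSE) on diet alone. The 406 tested miRNAs share 1 Benjamini-Hochberg adjustment (threshold 0.05). CPM values use all 1011 rows, and the rows the filter removed held at most 0.0351% of a library. Ratios use a prior count of 0.5 per row. The code was tested on simulated data.

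Named besides the members are the 5 miRNAs with the highest r to the most abundant member and the 4 most abundant of the context list. Members and lists were chosen with earlier results of these data known. Alternatives used RLE, upper-quartile or no factors, other filters, DESeq2 1.42.0, limma 3.58.1 (voom, and trend on log2 TPM), the replicate number as a block, merged miR-29a-3p and miR-29c-3p rows, omission of the most abundant miRNA or of each library, a threshold of 0.1 and a prior of 5. The legacy quasi-likelihood method was an alternative chosen after seeing the data.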

Additional observations from a re-analysis of the deposited data

How the results depend on the processing

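No tested member passed an adjusted p of 0.05 under any alternative run, with adjusted p from 0.48 to 1.0. miR-29b-2-5p kept a positive log2 fold change throughout, from 0.44 to 1.59. With library totals only, miR-29a-3p was at -0.20, miR-29b-3p at -0.0471 and miR-29c-5p at -0.40. With limma-trend on log2(TPM + 1) the values were -0.11, -0.0468 and -0.000284, and on log2(TPM + 0.1) miR-29a-3p was at -0.11 and miR-29b-3p at -0.0481. With a mean of at least 100 counts miR-29c-5p was at -0.059, and miR-29c-3p and miR-29b-2-5p were not tested. Leaving out 1 library moved miR-29a-3p from -0.12 to 0.48, miR-29b-3p from 0.02 to 0.52, miR-29c-3p from -0.59 to 0.38 and miR-29c-5p from -0.18 to 0.93. The cause was not tested.

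The number of miRNAs called between diets was 1. DESeq2 called 3, edgeR without the filter called 8, and library totals alone or limma-trend (both pseudocounts) called 0. Leaving out 1 library gave 0 to 4 calls. Of 64 alternatives for the 8 ratios, 3 turned the sign of the difference, all by leaving out 1 library: miR-29b-3p to miR-29b-1-5p ran from -0.70 to 1.40 and miR-29a-3p to miR-29b-3p from -0.18 to 0.077. The step from miR-29a-5p to miR-29b-1-5p ran from -0.60 to 1.06 on the log2 scale. With 5 libraries an exact sign-flip permutation test cannot go below p = 0.0625.

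Same-numbered libraries of the 2 diets deviated from their diet means with correlations of 0.14 (number 1), -0.24 (number 2) and 0.31 (number 3). Since 1 of them is below 0.1, the numbers are not treated as pairing the samples. With the replicate block 1 miRNA was called and miR-29a-3p stood at 0.23 on the log2 scale (adjusted p = 0.809 in edgeR). miR-29a-5p and miR-29b-1-5p, with 0 to 16 reads per library, are limited by depth.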
